A study of Gallus gallus with 6 samples.

Results

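The stretch of chromosome 13 described here is the 597.572 kb around Cxcl14 over which the authors predicted AP1 sites, chr13:14364546-14962117 in the chick assembly galGal4. Its members are all deposited intervals that touch it, 638 of the 245419 intervals in the 12 lists used: H3K27ac and H3K27me3 peaks called by Homer and by MACS2, putative enhancers, predicted AP1 sites and conserved regions found by DREiVe. Their positions alone chose them, and no measured value was used. Near the middle of the stretch lies Cxcl14-E, an element that the study cloned into a reporter, at chr13:14642196-14643846. It is 1651 bp long, starts 277.65 kb after the start of the stretch and ends 318.271 kb before its end. The study drew its cloned elements from regions flanked by H3K27ac in these same libraries. The H3K27ac peaks beside the element are therefore no independent result.

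The tissue was the posterior pre-placodal region (pPPR), taken from chick embryos at HH6 and cultured for 6 h. Control explants were grown in DMEM alone and treated explants in DMEM with 0.25 ng/µl FGF2. Each library was made from about 100 pooled tissues, with a single library per condition for either mark and for the input. No difference between the conditions can therefore be set against a spread between replicates, no test was made, and every comparison describes these libraries. The source labels of the treated H3K27me3 library and the treated input name FGF3 and FGF4, while their titles and culture conditions give FGF2, as which they are taken here.

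Cxcl14 is a secreted chemokine of the CXC family, and the study used it as an FGF-responsive gene of the otic-epibranchial progenitors (OEPs), from which the inner ear and the epibranchial ganglia form. H3K27ac is an acetylation of histone H3 found at active enhancers and promoters, often on the nucleosomes at either side of the bound DNA, so that a pair of neighbouring peaks can flank an enhancer. H3K27me3 is the methylation laid down by Polycomb repressive complexes at silenced genes. AP1, a dimer of Jun and Fos proteins, acts downstream of FGF and MAP kinase signalling. DREiVe looks for clusters of short motifs that several species share, without an alignment.

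The primers with which the element was cloned are shown because they fix the ends of the element. Both are written 5′ to 3′ in lower case, and the reverse primer reads the opposite strand. The study gives the span of the element but no position for either primer. The positions below assume that the forward primer lies at the lower end of that span. Neither sequence was placed on the genome, so the positions of the primers could be exchanged.
Forward primer (20 bases, chr13:14642196-14642215): agcctaccagttgtcctaga
Reverse primer (21 bases, chr13:14643826-14643846): cacagtgtattgcttggcttt

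Which gene lies where in the stretch could not be read, as no annotation of galGal4 was used. In the later assembly GRCg7b, where RefSeq gives the order of genes, CXCL14 stands between SLC25A48, a mitochondrial carrier, and NEUROG1, a proneural basic helix-loop-helix factor of the otic ganglion. Beyond SLC25A48 follow IL9, FBXL21, LECT2, TGFBI, the BMP mediator SMAD5 and the cation channel TRPC7, and beyond NEUROG1 follow H2AFY, which encodes a macroH2A histone, and the homeodomain factor PITX1. No peak is assigned to any of them here.

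Counted over the whole stretch, the 2 conditions differed little in H3K27ac. By Homer there were 32 H3K27ac peaks in control, covering 24.0 kb, and 37 with FGF2, covering 27.8 kb. The ratio of FGF2 to control peaks was 1.16, with a 95% interval of 0.701 to 1.92 from the exact binomial split of the counts, which covers counting error only and takes peaks as independent. Over the whole series the ratio was 1.14, so that the stretch as a whole stood close to the genome. MACS2 called 41 peaks in control and 28 with FGF2, covering 38.9 and 34.6 kb, a ratio of 0.683 (0.407 to 1.13) beside 0.700 in the series. The callers thus give opposite directions here, and do so in the series as well.

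The peaks that were present in only 1 condition were also as frequent as elsewhere. Peaks counted as shared when they had at least 1 bp in common. Of the 37 Homer H3K27ac peaks with FGF2, 24 had no control peak, or 64.9% (exact Clopper-Pearson 95% interval 47.5 to 79.8%), beside 64.4% over the series. Of the 32 control peaks, 19 had no FGF2 peak, or 59.4% (40.6 to 76.3%), beside 59.3%. With MACS2 the shares were 12 of 28 FGF2 peaks (42.9%, series 41.7%) and 23 of 41 control peaks (56.1%, series 57.4%). Of the Homer peaks, 22 of 32 in control (68.8%, series 70.7%) and 22 of 37 with FGF2 (59.5%, series 59.1%) were also called by MACS2. None of these shares stands apart from its background. In all, 66 shares were set beside the series, and the interval leaves out the value of the series in 19 of them. It does so in 10 of the 36 that were picked for print. Some of the 66 are printed besides these 36. They are shares of sites at 1 and 10 kb, AP1 sites near MACS2 H3K27me3, and MACS2 overlap of the marks within a condition. Among these, the intervals that leave out their background are all at 10 kb. They belong to the control AP1 share near Homer H3K27ac, both AP1 shares near Homer H3K27me3, and the control DREiVe shares of both callers. The intervals are not adjusted for this number, and neighbouring intervals are not independent.

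Within the stretch, the balance of the conditions varied with position, as the map of the whole stretch shows. No background over the series was computed for the sides, bins or runs, so this is not read as particular to the stretch. Signed positions are in kb from the centre of Cxcl14-E, negative before it, other distances are from its nearer end, and the stretches compared were chosen after the lists had been seen. Before Cxcl14-E, Homer placed 12 control and 21 FGF2 peaks of H3K27ac. After it, the numbers were 20 and 16. With MACS2 the numbers were 15 and 16 before the element, and 26 and 12 after it. The ratio of FGF2 to control peaks was thus higher before the element than after it by both callers. The length under MACS2 peaks did not follow, at 15.5 kb in control and 12.5 kb with FGF2 before the element, a ratio of 0.804, and 23.4 and 22.2 kb after it, a ratio of 0.949.

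**Figure D1:**
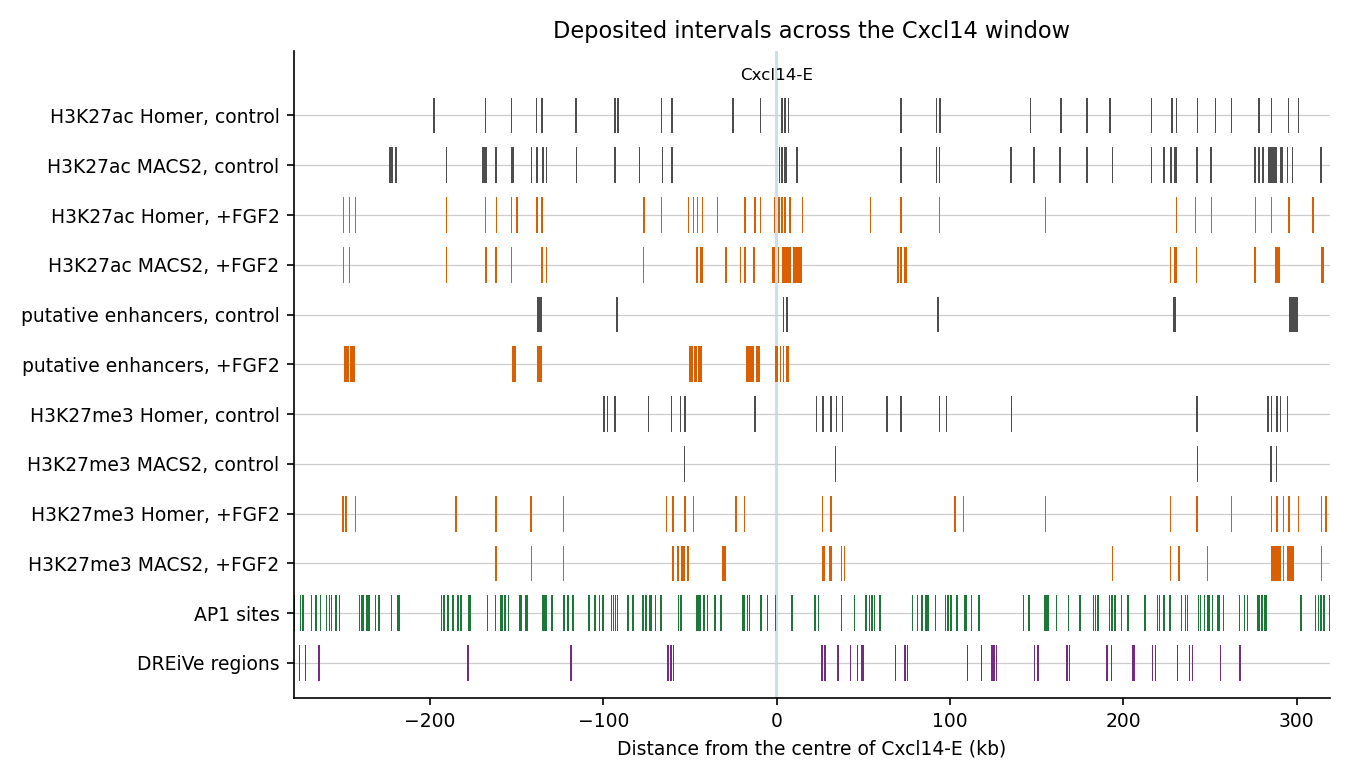
Intervals of each list across the whole stretch, with the distance from the centre of Cxcl14-E in kb on the x axis and 1 line for each list; grey marks control, orange FGF2, green AP1 sites, purple DREiVe regions and the blue band the element. Intervals narrower than 0.8 kb are drawn at 0.8 kb. Of the 13 FGF2 putative enhancers 9 lie before the element, beside 2 of the 7 in control.

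Cut into bins of 100 kb, the third bin, from -78.48 to 21.52 kb, holds the element and had the largest excess of H3K27ac with FGF2. Homer called 7 peaks there in control and 16 with FGF2, and MACS2 called 6 and 11. The length under MACS2 peaks was 3.72 kb in control and 18.5 kb with FGF2, a ratio of 4.98. The peaks beside the element, which are counted in this bin, were part of its choice by the study. The fifth bin, from 121.52 to 221.52 kb, showed the opposite. Homer called 5 control peaks and 1 FGF2 peak in it, and MACS2 called 6 control peaks, covering 4.69 kb, and no FGF2 peak. The single FGF2 peak by Homer starts at 14797846, 1 bp from the start of an FGF2 H3K27me3 peak at 14797845, and MACS2 called neither. In the last bin, from 221.52 kb to the end, H3K27ac peaks numbered 9 and 7 by Homer and 13 and 6 by MACS2.

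**Figure D2:**
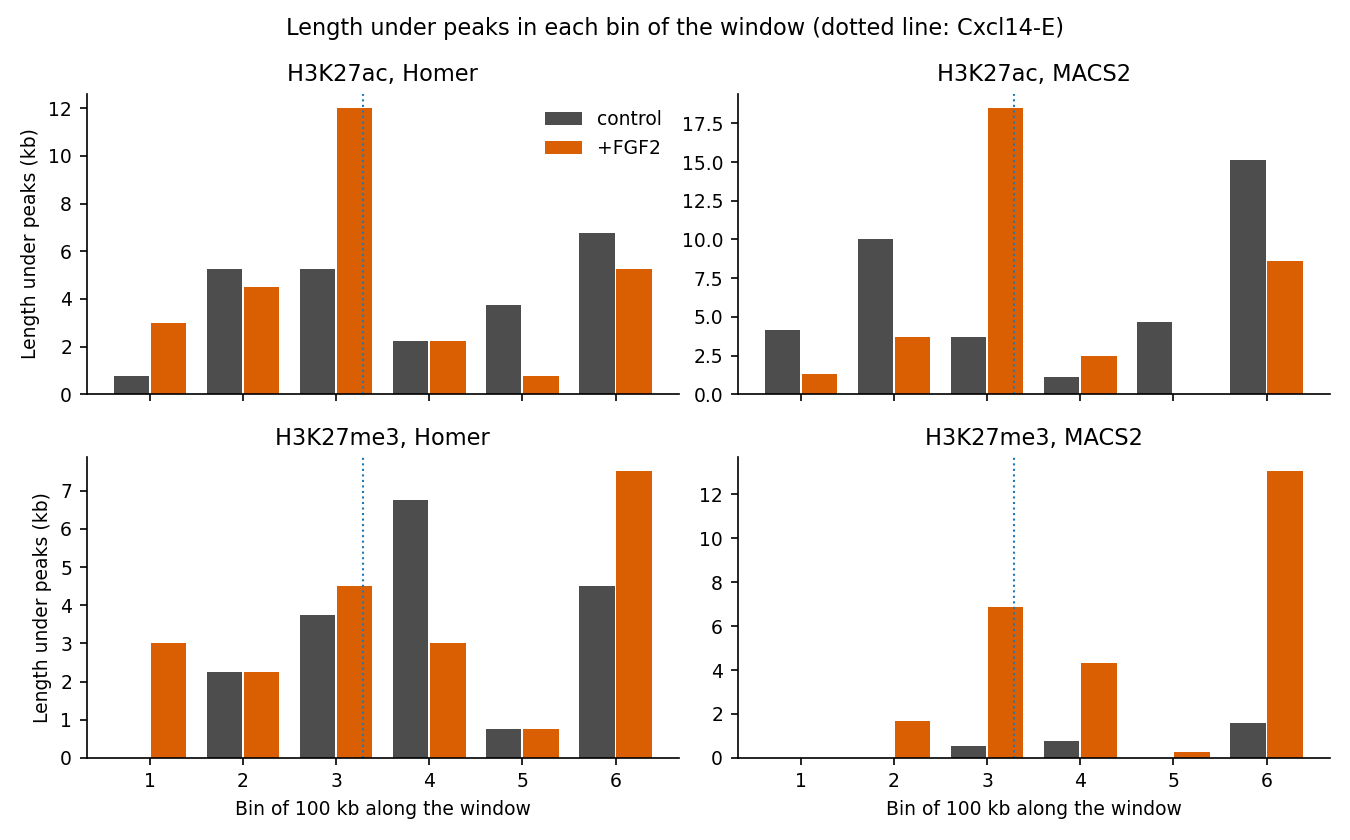
Length under peaks in kb for each of the 6 bins of 100 kb, the last of which is 97.572 kb long, in control (grey) and with FGF2 (orange), for each mark and caller; each bar is 1 library, without an error. In bin 3, which holds Cxcl14-E at the dotted line, MACS2 H3K27ac peaks cover 3.72 kb in control and 18.5 kb with FGF2. In bin 6 MACS2 H3K27me3 peaks cover 1.59 and 13.05 kb. Over the whole series MACS2 called 1097 control and 26538 FGF2 H3K27me3 peaks.

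Peaks that both callers placed in 1 condition and neither placed in the other were divided in the same way. There were 11 Homer H3K27ac peaks with FGF2 that MACS2 also called and that touched no control peak of either caller. That is 29.7% of the FGF2 peaks (15.9 to 47.0%), beside 19.5% in the series. Of these, 8 lie between -76.55 and 14.81 kb, 2 at -250.01 and -246.44 kb, and 1 at 241.79 kb. The 8 control peaks of the same kind are 25% of the control peaks (11.5 to 43.4%), beside 27.7%, and are spread from -115.73 to 278.18 kb, and the nearest to the element is centred at -60.34 kb. Counted from the MACS2 lists there were 8 such peaks in each condition, or 28.6% with FGF2 (13.2 to 48.7%, series 22.1%) and 19.5% in control (8.82 to 34.9%, series 20.2%), and all 4 intervals include the background. Of the Homer peaks, 2 of the 8 in control and 3 of the 11 with FGF2 also shared bases with a Homer H3K27me3 peak of their own condition.

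The neighbourhood of Cxcl14-E carried 15.4 of the 34.6 kb of H3K27ac that MACS2 called with FGF2. The element was drawn from regions flanked by H3K27ac in these data, so the excess beside it is in part given by that choice. Within 25 kb of the element Homer called 5 control and 9 FGF2 peaks, and MACS2 called 4 and 7. The length under MACS2 peaks was 2.40 kb in control and 15.4 kb with FGF2, a ratio of 6.45, against 1.80 by Homer, whose peaks are all 751 bp wide in this stretch. Most of that length is in 2 broad MACS2 peaks with FGF2. The nearer lies at chr13:14646246-14651460 and is 5215 bp long, and the other at chr13:14652745-14657842 is 5098 bp long. In control, MACS2 called only short pieces in their place: 640 bp and 1212 bp at chr13:14645825-14646464 and chr13:14647535-14648746 share sequence with the nearer, and 278 bp at chr13:14654521-14654798 lies in the other. H3K27me3 was about as dense here as in the whole stretch by Homer, and absent by MACS2. The Homer peaks covered 2.91% of this neighbourhood in each condition, beside 3.02% of the stretch in control and 3.52% with FGF2. Homer called 2 H3K27me3 peaks within 25 kb in each condition and MACS2 called none, and the nearest to the element were 11.333 kb away in control and 17.183 kb away with FGF2.

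**Figure D3:**
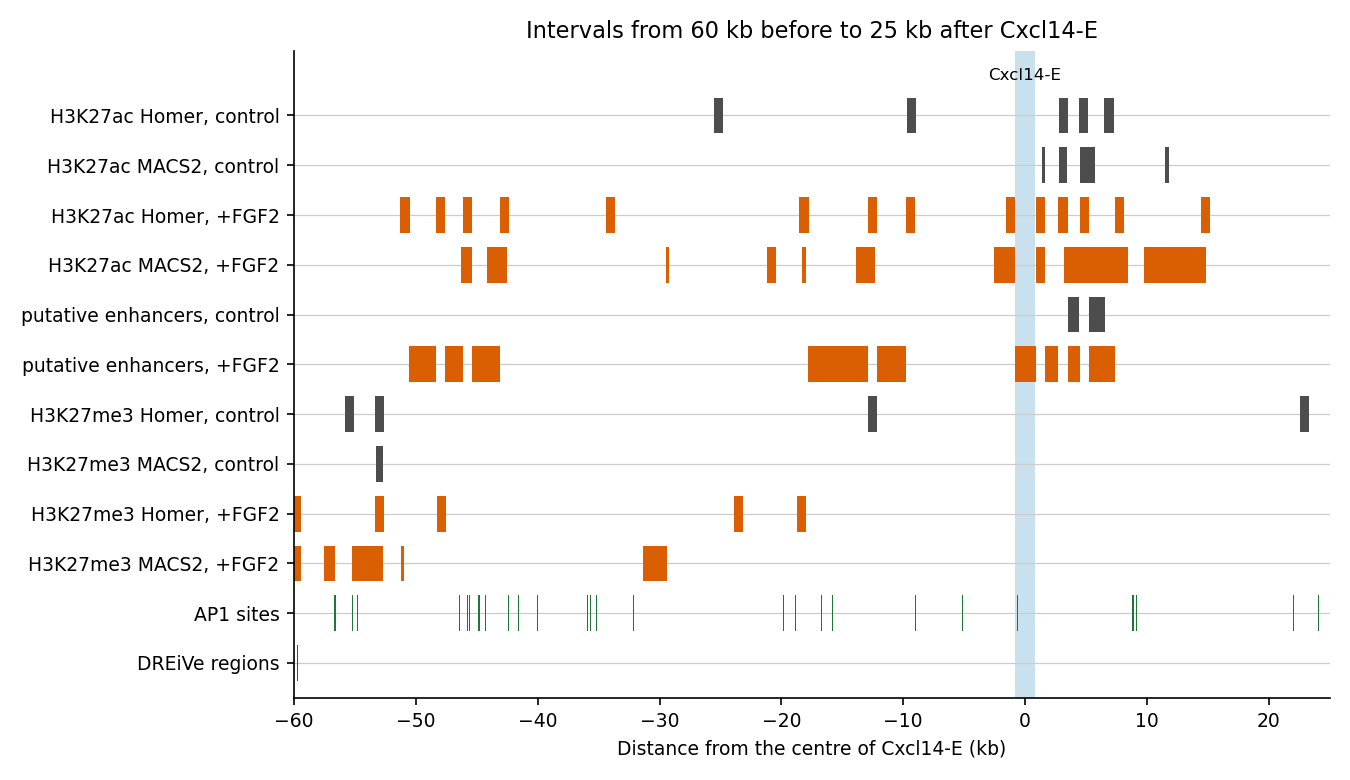
The same lists from -60 to 25 kb around the centre of Cxcl14-E (blue band), with grey for control and orange for FGF2; intervals narrower than 0.1 kb are drawn at 0.1 kb. The FGF2 putative enhancers fall into 3 groups, near -47, from -15.35 to -10.97 and from the element on, and the 2 broad MACS2 H3K27ac peaks with FGF2 (5215 and 5098 bp) lie after the element.

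Peaks were next grouped into runs, in which neighbours lie no more than 5 kb apart. The fullest Homer run with FGF2 has 5 H3K27ac peaks over 9.73 kb, at chr13:14641412-14651145, and includes the element. Control has 3 peaks there, which form the fullest control run, at chr13:14645799-14650287. The control run thus starts only after the element, and its peaks at 14645799 and 14647471 have FGF2 partners that share 705 and 717 bp with them. The peaks at 14641412 and 14643925, which lie 0.033 kb before the element and just after it, are absent from the control Homer list. MACS2 placed peaks at both sites with FGF2. At the site before the element it had no control peak, and at the site after it a control peak of 266 bp at chr13:14644423-14644688, 0.576 kb from the element. The other FGF2 peak of this run without a control partner in either list starts at 14650395. The last peak of the control run, at chr13:14649537-14650287, ends shortly before it and shares no base with it.

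The next FGF2 run lies apart from the element, at chr13:14591752-14600699, centred at -46.8 kb, and has 4 Homer peaks. Control has no H3K27ac peak in it by either caller. MACS2 called 2 of the 4 peaks, at chr13:14596763-14597594 and chr13:14598900-14600486. The run holds 6 AP1 sites in 8.95 kb. An H3K27me3 peak by Homer with FGF2, at 14594755, shares 641 bp with 1 of the H3K27ac peaks that MACS2 did not call, and MACS2 called an FGF2 H3K27me3 peak at chr13:14591810-14592089, inside the other. Their part in the run was not tested.

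The third FGF2 run, at chr13:14392634-14400332 near the start of the stretch, has 3 Homer peaks over 7.70 kb and no control peak. Of the FGF2 runs it has the most H3K27me3 by Homer, with 3 peaks with FGF2 and none in control. MACS2 placed 0.658 kb of H3K27ac there with FGF2, no H3K27ac in control, and no H3K27me3 within the first 50 kb in either condition. It holds no AP1 site. Another FGF2 run of 3 peaks lies closer to the element, at chr13:14624492-14634005, with 1 control peak, 2 AP1 sites and a Homer H3K27me3 peak in each condition. Runs of equal number are given in order of position. Control had 5 runs of 2 peaks, the first of them at chr13:14504229-14508129, where FGF2 also has 2, and at chr13:14549496-14551962, where FGF2 has none. In all, Homer peaks fell into 25 runs in control, 19 of them single peaks, and into 24 with FGF2, 18 of them single.

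By MACS2 the fullest run of each condition lies in a different place. With FGF2 it is the run of 4 peaks at chr13:14640446-14657842 around the element, with 12.8 kb under peaks beside 2.40 kb in control. In control it is a run of 7 peaks far away, at chr13:14918477-14940595, with 10.5 kb under peaks beside 3.87 kb with FGF2. Of the 8 MACS2 runs of more than 1 peak with FGF2, those next in number have 3 peaks and lie at chr13:14621855-14630689, where control has no peak, and at chr13:14712937-14718272, where control has 1. Control also had 8 such runs. The next in number lies at chr13:14501077-14510432, with 4 peaks beside 2 with FGF2, and it is followed by those at chr13:14644423-14648746 and chr13:14866319-14873858, each with 3 beside 2.

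The control run at the far end is also where H3K27me3 was most extensive with FGF2. In the last 50 kb of the stretch MACS2 called 8 control and 3 FGF2 H3K27ac peaks, covering 11.0 and 5.52 kb. In the same 50 kb it called 2 control and 4 FGF2 H3K27me3 peaks, covering 1.23 and 11.4 kb. Over the whole series MACS2 called 1097 control and 26538 FGF2 H3K27me3 peaks, a ratio of 24.2. More H3K27me3 with FGF2 by this caller is therefore not particular to this place. The widest control H3K27ac peak of the stretch, 5195 bp at chr13:14926526-14931720, shares 3627 bp with FGF2 H3K27me3 by MACS2. The widest H3K27me3 peaks of the stretch are both here, 5674 bp at chr13:14928094-14933767 and 4359 bp at chr13:14937416-14941774, and both are FGF2 peaks. Homer did not place fewer H3K27ac peaks there with FGF2, with 4 in each condition, while its H3K27me3 peaks numbered 5 and 7.

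**Figure D4:**
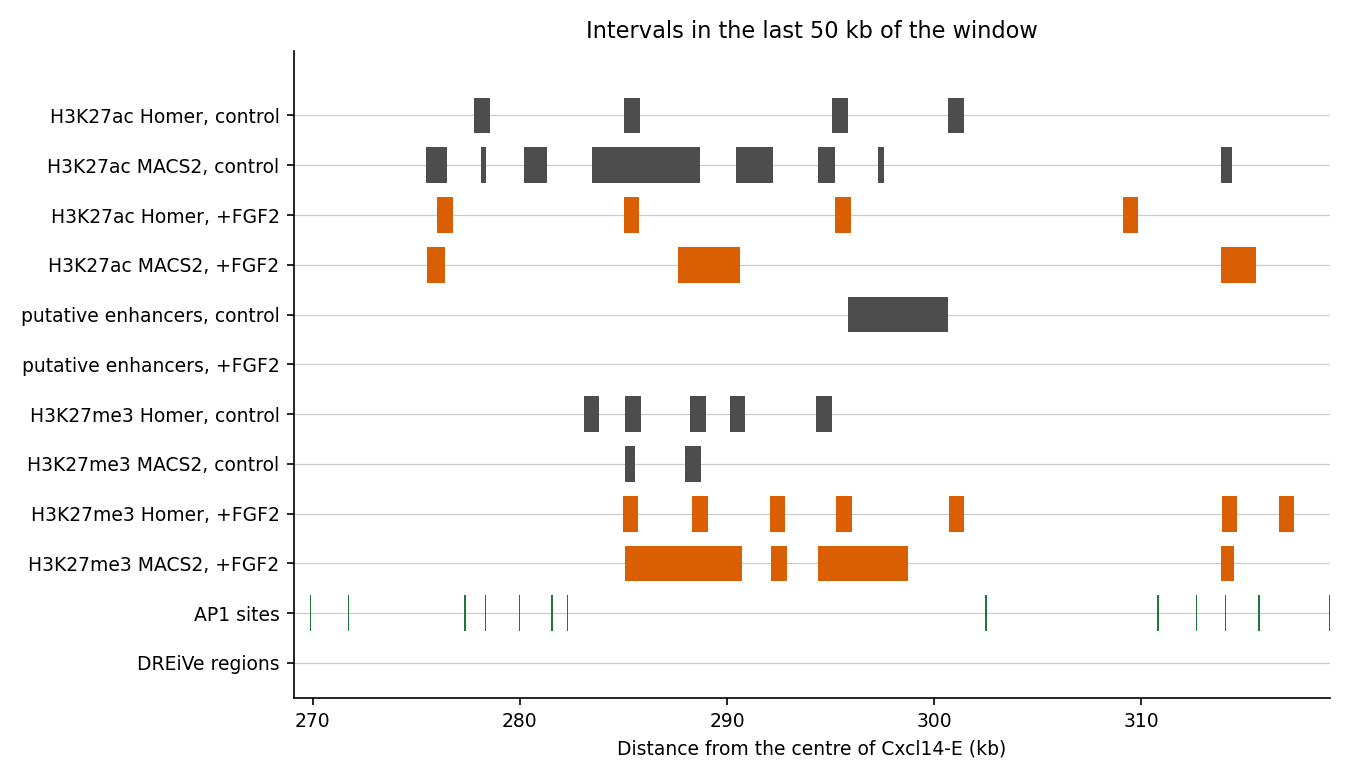
The same lists in the last 50 kb of the stretch, against the distance from the centre of Cxcl14-E in kb, with grey for control and orange for FGF2. MACS2 H3K27ac peaks cover 11.0 kb in control and 5.52 kb with FGF2, while MACS2 H3K27me3 peaks cover 1.23 and 11.4 kb. Over the whole series MACS2 called 1097 control and 26538 FGF2 H3K27me3 peaks. Homer called 4 H3K27ac peaks in each condition.

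Peaks of the 2 marks overlapped at the far end and elsewhere. Joined where they overlap, the Homer peaks of all 4 lists make 83 separate places over the whole stretch, and 2 of these hold a peak of both marks in both conditions. No share over the series was computed for such places. The place near 285.41 kb is inside the far run. At the other, near 242.22 kb, the peaks form a chain, in which the FGF2 and control H3K27ac peaks share no base. With FGF2, the MACS2 H3K27ac peak at chr13:14930647-14933642 lies with all of its 2996 bp inside the broad H3K27me3 peak. The FGF2 peaks of both marks start at the same base, 14956884, further on, and the control H3K27ac peak there starts at 14956880.

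Over the whole stretch both callers placed more H3K27me3 peaks with FGF2. Homer called 24 control and 28 FGF2 peaks, a ratio of 1.17 (0.652 to 2.10) beside 1.56 in the series. MACS2 called 5 and 20, covering 2.90 and 26.2 kb, a ratio of 4 (1.46 to 13.6) beside 24.2 in the series. The larger number with FGF2 by MACS2 was thus found over the whole series, and more strongly there. The interval of the stretch lies below the ratio of the series. On chromosome 13 as a whole the ratio was 8.94, which the interval includes. Of the Homer H3K27me3 peaks, 22 of 28 with FGF2 (78.6%, 59.0 to 91.7%) had no control peak, beside 86.5% in the series, and 18 of 24 in control (75.0%, 53.3 to 90.2%) had no FGF2 peak, beside 78.9%. MACS2 also called 5 of 24 Homer peaks in control (20.8%, 7.13 to 42.2%), beside 4.81% in the series, and 13 of 28 with FGF2 (46.4%), beside 47.2%. The lower bound in control is above the share of the series, though it rests on 5 peaks. By place, the fourth bin went against the rest by Homer, with 9 control and 4 FGF2 peaks, while MACS2 called 1 and 4 in it.

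Some H3K27ac peaks lay on H3K27me3 of the same condition. Of the 32 control H3K27ac peaks by Homer, 6 touched a control H3K27me3 peak, or 18.8% (7.21 to 36.4%), beside 8.84% in the series. With FGF2 it was 9 of 37, or 24.3% (11.8 to 41.2%), beside 17.4%. By MACS2 it was 2 of 41 in control (4.88%, 0.596 to 16.5%), beside 0.858%. With FGF2 it was 5 of 28 by MACS2 (17.9%, 6.06 to 36.9%), beside 16.6%. All these intervals include the background. The FGF2 share by Homer was 4.55% when peaks of either mark had to be called by both callers. Homer peaks of the 2 marks that start within 100 bp of each other numbered 3 in control and 4 with FGF2. Whether the same nucleosomes carried both marks was not tested.

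Across the conditions, control H3K27ac met FGF2 H3K27me3 more often than in the series. By Homer, 7 of 32 control H3K27ac peaks touched an FGF2 H3K27me3 peak, or 21.9% (9.28 to 39.97%), beside 7.20%. By MACS2 it was 10 of 41, or 24.4% (12.4 to 40.3%), beside 10.7%. Both intervals lie above the background. The Homer peaks starting at 14582305, 14885298 and 14928054 also touched control H3K27me3, and that at 14870665 shared only 64 bp. The MACS2 peaks starting at 14926526, 14933454, 14937421, 14940321 and 14956880 all lie in the last 50 kb, so they are not independent. In the opposite direction, FGF2 H3K27ac met control H3K27me3 at 4 of 37 Homer peaks (10.8%, 3.03 to 25.4%), beside 5.91%, and at 2 of 28 MACS2 peaks (7.14%, 0.877 to 23.5%), beside 0.898%. These shares were also above the series, though their intervals include it, and so were the shares within each condition. A share above the series is therefore not particular to control H3K27ac and FGF2 H3K27me3. How far it follows from the density of peaks in the stretch was not tested. In bases, control H3K27ac and FGF2 H3K27me3 shared 8.07 kb by MACS2 and 3.55 kb by Homer. Control H3K27me3 and FGF2 H3K27ac shared 0.930 kb and 2.86 kb. The widest control H3K27ac peak of the far run alone holds 3627 bp of the MACS2 bases.

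The putative enhancers are the gaps between neighbouring H3K27ac peaks that the authors deposited, and each of those in the stretch is such a gap between Homer peaks. Over the series these lists hold 10674 enhancers in control and 12198 with FGF2. The paper reports fewer putative enhancers, so the shares over the series given here are not those of the paper. There were 7 in control, covering 13.6 kb, and 13 with FGF2, covering 29.5 kb. The ratio was 1.86 (0.689 to 5.50) beside 1.14 in the series, and the interval includes the background. Of the FGF2 enhancers, 10 of 13 had no control enhancer (76.9%, 46.2 to 94.96%), beside 63.8%, and of the control enhancers 4 of 7 had no FGF2 enhancer (57.1%, 18.4 to 90.1%), beside 58.7%. In the other 6 spans of the AP1 list the ratio ran from 0.923 to 27, and the Cxcl14 stretch was the fourth of the 7 in rank.

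The deposited enhancers of the 2 conditions were divided differently around the element. No background over the series was computed for this split, and its direction depended on how the enhancers were derived. Before Cxcl14-E there were 2 in control and 9 with FGF2, covering 3.36 and 23.5 kb. After it there were 5 and 3, covering 10.2 and 4.30 kb, and 1 FGF2 enhancer spans it. With gaps of up to 3 kb that overlap no Homer H3K27me3 peak, the ratio was 3 before the element and 1 after it, so that the lower number with FGF2 after the element was not found again. The 2 derivations that change the direction before the element are gaps of up to 2 kb, with 1 enhancer in control and 0 with FGF2, and gaps between MACS2 peaks, with 4 and 3.

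Within 25 kb of the element there were 2 control and 6 FGF2 enhancers. The element was drawn from regions of this kind, so an FGF2 enhancer at its place was given by that choice. The enhancer at chr13:14642163-14643924 contains the whole of Cxcl14-E, and no base of it is under control H3K27ac by either caller. Next to it, 0.829 kb from the element, lies the FGF2 enhancer at chr13:14644676-14645752, which has 13 bp under control MACS2 H3K27ac and no control enhancer. The 2 further on are common to both conditions. One lies at chr13:14646550-14647470 in control and chr13:14646504-14647504 with FGF2, and shares 921 bp. The other lies at chr13:14648222-14649536 in control and chr13:14648256-14650394 with FGF2, and shares 1281 bp. The gap of the latter was longer with FGF2, at 2139 bp against 1315 bp, and MACS2 called H3K27ac over all of it with FGF2, so that the dip between the Homer peaks lies under a single broad MACS2 peak. The same is true of the common FGF2 enhancer before it.

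On the other side of the element 2 enhancers, at chr13:14625243-14630102 and chr13:14630854-14633254, were present with FGF2 alone. The first of them is 4860 bp wide and was not found again under a limit of 3 kb. They share the peak at chr13:14630103-14630853, which MACS2 also called with FGF2 and not in control. In control the same place held H3K27me3 by Homer, at chr13:14630112-14630862, which shares 742 bp with that H3K27ac peak. MACS2 called no H3K27me3 there. The remaining common enhancer lies far off, at chr13:14504980-14507378 in control and chr13:14505030-14507375 with FGF2, and shares 2346 bp.

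A rule of gaps up to 3 kb that overlap no Homer H3K27me3 peak found 5 of the 7 control and 10 of the 13 FGF2 enhancers again. Of the 5 that it did not find, 3 share bases with a Homer H3K27me3 peak of their condition, which are the control enhancer starting at 14735456 (104 bp) and the FGF2 enhancers starting at 14393385 (751 bp) and 14595396 (110 bp). The other 2 are wider than 3 kb, at 4850 bp in control and 4860 bp with FGF2. By MACS2 no enhancer of either list overlapped H3K27me3 of its own condition.

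AP1 sites were spread over the stretch at 308 per Mb. The 284 deposited entries overlap in places and were joined into 184 sites of 9 or 10 bp. Within 5 kb of an H3K27ac peak by Homer lay 73 sites in control, or 39.7% (32.6 to 47.1%), and 99 with FGF2, or 53.8% (46.3 to 61.2%). Over all 7 spans of the list the shares were 38.9% and 55.3%, and both intervals include them. At 10 kb the control share was 70.1% (62.9 to 76.6%), above the 56.9% of all spans, and the FGF2 share was 75.5% beside 75.3%. With MACS2 the order was the opposite, at 91 sites in control (49.5%) and 70 with FGF2 (38.0%, 31.0 to 45.5%). Over the 6 spans whose control MACS2 positions are not rounded, with 1177 of the 1370 sites, the shares were 53.7% and 51.5%, and the interval of the FGF2 share lies below the latter.

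The sides of the element differed here too. Of the 101 sites before its centre, 28 (27.7%) had a Homer H3K27ac peak within 5 kb in control and 58 (57.4%) with FGF2. Of the 83 after it, the numbers were 45 (54.2%) and 41 (49.4%). With MACS2 the numbers were 45 (44.6%) and 47 (46.5%) before, and 46 (55.4%) and 23 (27.7%) after. Both callers thus gave a higher FGF2 share, relative to control, before the element, with differences of 29.7 and 1.98 percentage points, than after it, with -4.82 and -27.7 points. By site, 46 had a Homer peak within 5 kb in both conditions, 27 in control alone, 53 with FGF2 alone and 58 in neither. No background over all spans was computed for the sides or for this split. More sites had H3K27me3 within 5 kb with FGF2. By Homer they were 37 in control (20.1%, 14.6 to 26.6%, all spans 27.9%) and 74 with FGF2 (40.2%, 33.1 to 47.7%, all spans 29.7%). By MACS2 they were 9 in control (4.89%) and 49 with FGF2 (26.6%), beside 3.57% and 25.8% over the spans without rounded positions. Both MACS2 intervals include these. Within 1 kb by Homer the conditions hardly differed, at 17 (9.24%, all spans 9.71%) and 18 (9.78%, all spans 9.12%). Within 10 kb by Homer the sites were 72 (39.1%, 32.0 to 46.6%, all spans 46.9%) and 125 (67.9%, 60.7 to 74.6%, all spans 49.3%). At 5 and 10 kb by Homer, the control intervals lie below their background and the FGF2 intervals above it. How far this follows from the number of H3K27me3 peaks in each span was not tested.

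**Figure D5:**
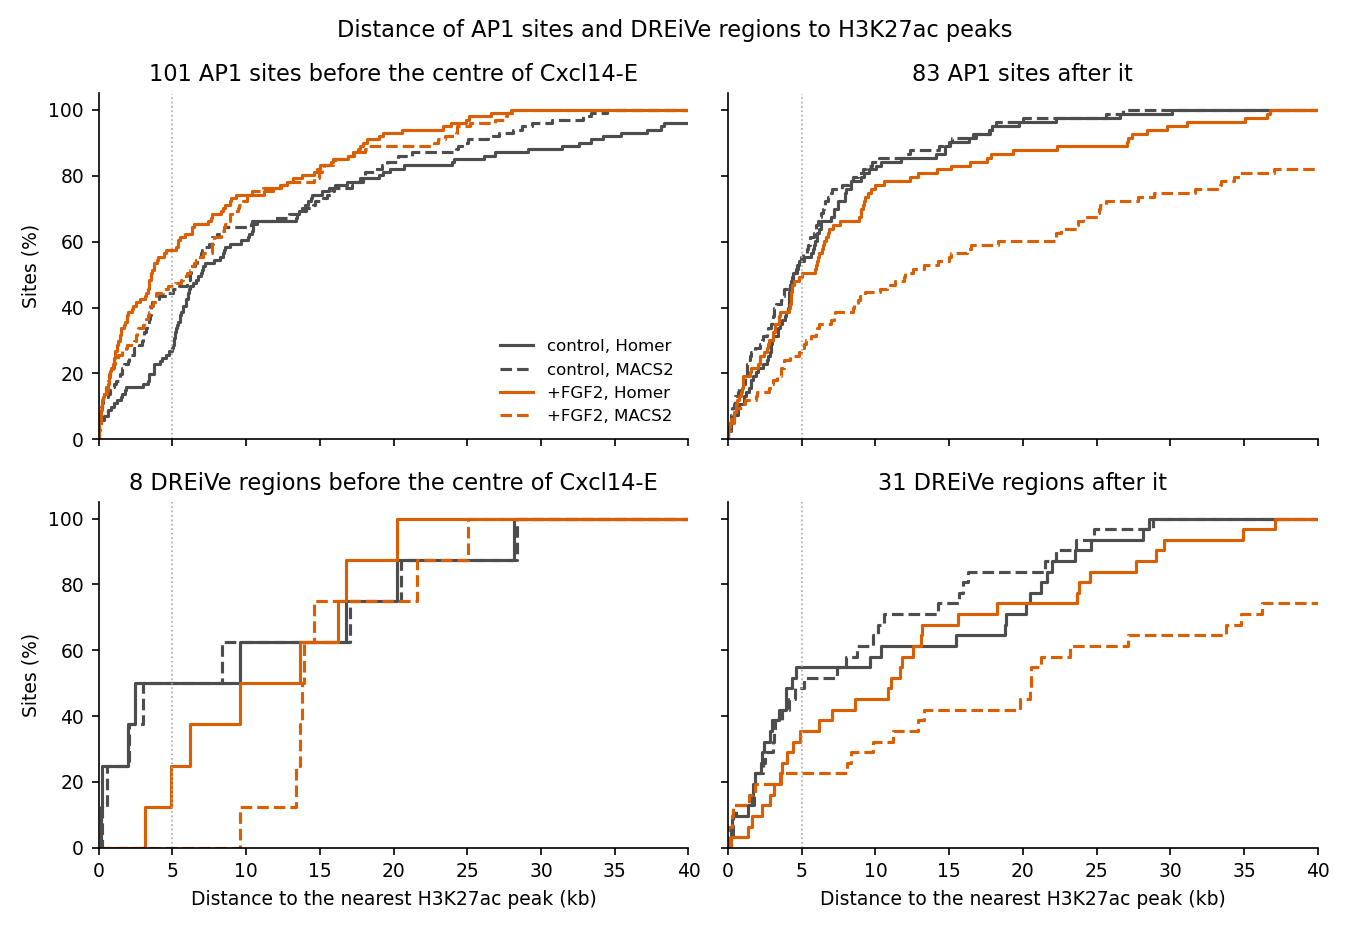
Share of AP1 sites (upper panels) and DREiVe regions (lower panels), in percent, against the distance in kb to the nearest H3K27ac peak, before and after the centre of Cxcl14-E, in control (grey) and with FGF2 (orange), by Homer (solid) and MACS2 (dashed); the dotted line marks 5 kb. Before the centre, 27.7% of AP1 sites lay within 5 kb of a Homer peak in control and 57.4% with FGF2, and after it 54.2 and 49.4%.

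Few AP1 sites were inside putative enhancers, and all of those were FGF2 enhancers. The 7 control enhancers hold none of the 184 sites (0%, up to 1.98%), beside 6.35% over all spans. The 13 FGF2 enhancers hold 6 (3.26%, 1.21 to 6.96%), beside 11.6%. Both shares were below their background. The enhancers cover 2.28% of the stretch in control and 4.93% with FGF2. Over the 7 spans the enhancers numbered 1 to 65 in control and 9 to 60 with FGF2, beside 7 and 13 here. The shares therefore depend on how many enhancers a span holds, and are not read as a trait of the sites. Of the 6, the site at 14642371 to 14642380 lies in Cxcl14-E. The enhancer at chr13:14625243-14630102 holds 2, starting at 14626321 and 14627237. The other 3 are in the run at -46.8 kb, with 1 starting at 14596630 in the enhancer at chr13:14595396-14596894 and 2, starting at 14598204 and 14598710, in that at chr13:14597646-14599948. Thus all 6 lie between -46.39 and -0.65 kb, in 4 enhancers without a control counterpart. The peaks of that run hold 3 more sites, so that its 6 sites are divided evenly between the enhancers and the peaks that flank them.

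The conserved regions lay away from the H3K27ac around the element. DREiVe gave 119 entries in the stretch, which join into 39 regions of 60 to 612 bp, 8 before the element and 31 after it. The nearest to Cxcl14-E is 25.211 kb from it. No region lies in a putative enhancer of either condition (0 of 39, up to 9.03%), beside 2.53% in control and 5.34% with FGF2 over all DREiVe regions. None touched a Homer H3K27ac peak. MACS2 H3K27ac touched 3, at chr13:14716698-14716928 and chr13:14717388-14717478 with FGF2 and at chr13:14791600-14791687 in control. No share over all regions was computed for touching. Depending on the list, H3K27ac peaks cover 4.02 to 6.50% of the stretch, so these small counts are not read as a trait of the regions.

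More of the conserved regions lay near H3K27ac in control. Within 5 kb of a Homer H3K27ac peak lay 21 of the 39 regions in control, or 53.8% (37.2 to 69.9%), beside 19.9% over all regions, and 13 with FGF2, or 33.3% (19.1 to 50.2%), beside 31.7%. With MACS2 the numbers were 19 in control (48.7%, 32.4 to 65.2%) and 7 with FGF2 (17.9%, 7.54 to 33.5%), beside 27% and 27.8% of the 270 regions outside the rounded positions. Both callers thus put more regions near control peaks than near FGF2 peaks, with differences of -20.5 and -30.8 percentage points, and in control both intervals lie above the background. At 1 kb the control shares were 12.8% (4.30 to 27.4%) by Homer, beside 7.02%, and 15.4% (5.86 to 30.5%) by MACS2, beside 11.9%. Both of these intervals include the background. At 10 kb the control shares were 59.0% (42.1 to 74.4%) by Homer, beside 27.5%, and 64.1% (47.2 to 78.8%) by MACS2, beside 34.8%. Both intervals at 10 kb lie above the background, as at 5 kb. The shares also depend on how many peaks lie around the regions. Over the 7 AP1 spans control Homer H3K27ac peaks numbered 8 to 95, with 32 here, so the excess is not read as a trait of the regions. Of the regions, 11 had a Homer peak within 5 kb in both conditions, 10 in control alone, 2 with FGF2 alone and 16 in neither. No background over all regions was computed for this split. Neighbouring regions are close together and share their nearest peak, so that they are not independent. Bins 4 and 5 hold 13 regions each, and the latter is the bin where FGF2 had the fewest H3K27ac peaks.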

How the data were processed

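Nano-ChIP-seq libraries for H3K27ac and H3K27me3, 1 for each condition, were analysed from their peak positions. Reads had been aligned by the authors to galGal4 (Novoalign), and peaks of the uniquely placed reads came from Homer and from MACS2. The paper states the input as reference for Homer and names none for MACS2. The deposited lists give start and end positions, with no heights or read numbers, so that depth is unknown. Of 14 lists, 2 named for Homer enhancers repeat the Homer H3K27ac peaks and were not used. Overlapping AP1 and DREiVe entries were joined.

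An overlap is at least 1 bp. Shares carry exact Clopper-Pearson 95% intervals. For series-wide MACS2 shares, and where MACS2 was set against Homer, chromosomes 1, 2 and 3 were left out from 100 Mb on, where control positions are rounded. Intervals with coordinates follow a rule: enhancers within 25 kb of Cxcl14-E, common, or with an AP1 site or DREiVe region; DREiVe regions touching H3K27ac; and the 3 fullest runs of peaks for each condition and caller. Further positions printed were picked with their values in view. The members and lists were chosen with earlier results of these data known. Interval steps were tested on simulated data (Python 3.11.15, numpy 2.4.6, scipy 1.17.1, matplotlib 3.10.9). Alternatives changed the caller, overlap, distance, joining and enhancer rule.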

Additional observations from a re-analysis of the deposited data

How the results depend on the processing

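With 1 library for each condition and mark, no replicate could be left out. No paired analysis was possible because each group has 1 library. With MACS2 peaks the direction turned for the ratio of H3K27ac peaks (0.683), for the H3K27ac length (0.891), for the ratio of putative enhancers (0.692, before the element 0.75) and for the AP1 sites near H3K27ac (-11.4 percentage points). Gaps of up to 2 kb also turned the ratio of enhancers (0.75, before the element 0). Gaps of up to 3 kb moved the ratio after the element from 0.6 to 1. MACS2 moved the H3K27me3 peak ratio to 4 and its length ratio to 9.05, and Homer peaks also called by MACS2 moved both to 2.60. The FGF2 H3K27ac peaks without a control peak fell to 42.9% with MACS2, the control H3K27me3 peaks without an FGF2 peak to 40% with MACS2 and with peaks of both callers, and the control H3K27ac peaks with H3K27me3 to 4.88% with MACS2. The FGF2 H3K27ac peaks with H3K27me3 came to 4.55% with peaks of both callers. The AP1 difference was 5.43 points at 10 kb. No ratio of AP1 sites in enhancers could be formed, as control had 0. Their difference of 6 was 3 under the derived gaps of up to 3 kb. Of the 85 alternatives to 22 results, 61 kept the value within its limits and its direction. Those around and beside Cxcl14-E were added after the data were seen. Within 25 kb the H3K27ac peak ratio was 1.80 by Homer and 1.75 by MACS2, and the length ratio 1.80 and 6.45 (4.15 within 10 kb and 7.58 within 50 kb by MACS2). The cause of these changes was not tested.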
